A study of Mus musculus with 9 samples.

Results

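The cytoplasmic ribosomal protein genes are the genes that code for the proteins of the ribosome outside the mitochondrion. They were chosen by symbol, as every gene whose symbol starts with Rpl or Rps and a digit, or with Rplp or Rpsa, leaving out the Rps6k kinases. The rule found 83 of the 13089 genes listed for whole mouse eye. Of these, 76 code for ribosomal proteins proper, 45 of the large subunit and 31 of the small subunit. A further 6 are like-named variants (Rpl22l1, Rpl36al, Rpl39l, Rpl3l, Rpl7l1 and Rps27l). The remaining symbol, Rps19bp1, belongs to a protein that binds Rps19 and is not itself part of the ribosome.

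A ribosome joins its small subunit, which reads the mRNA, to its large subunit, which forms the peptide bonds, and most of its proteins are present in equal amounts. Their genes are transcribed strongly in nearly all tissues, the eye included. These short, abundant mRNAs have also been copied back into the genome many times as processed pseudogenes, intron-free copies of the mRNA scattered over the chromosomes. A short read from such an mRNA can therefore match the gene and its copies equally well.

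Poly(A) RNA of whole eyes was sequenced from wild-type A/J, BALB/c and C57BL/6J mice, inbred strains that the stated design compares for their rates of retinal degeneration. Mice of A/J and BALB/c are albino, and those of C57BL/6J are pigmented. There were 3 libraries for each strain, each from pooled RNA of 5 females aged 4 weeks. Whether these came from 3 separate pools is not stated, so the tests measure only the spread between libraries, which may be technical. All 14 marker genes of rods, lens, cornea, pigment epithelium, muscle and myelin that were looked up were listed, with the lens crystallin Cryaa at 18400 to 53100 RPKM and the corneal keratin Krt12 at 1630 to 3020 RPKM. Some varied more between libraries, with the myelin genes Mbp at 20.8 to 433 RPKM and Mobp at 0.01 to 25 RPKM. The pigment epithelium gene Rpe65 had 56 to 250 RPKM. RPKM is a read number scaled to the length of the gene and to the mapped reads of the library. In bulk tissue, fewer cells of a type and less RNA per cell cannot be told apart.

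The depth of the libraries is unknown, and the sum of RPKM over the listed genes ran from 511887.9 to 599635.4. A/J 3 and C57BL/6J 3 stood apart from the other libraries of their strain. Across genes, the deviation of a library from a gene's mean was set against GC content. The Spearman correlation was -0.67 in A/J 1, -0.74 in A/J 2 and 0.46 in A/J 3. For BALB/c 1 it was 0.1, for BALB/c 2 0.56 and for BALB/c 3 0.56. For C57BL/6J 1 it was -0.31, for C57BL/6J 2 0.24 and for C57BL/6J 3 0.41. The correlation thus ran partly along strain, negative in A/J 1 and A/J 2 but positive in every BALB/c library. By this measure C57BL/6J 1, not C57BL/6J 3, differed in sign from the rest of its strain. In C57BL/6J 3, 18 ribosomal protein genes were at least 3 times as high as in both other C57BL/6J libraries, as were 437 of all listed genes (3.34%). For some genes, though not for all, the text says that a result rests on A/J 3 or C57BL/6J 3. The counts of all members called are given also without A/J 3 and C57BL/6J 3, and on values corrected for GC content.

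How close a pseudogene copy can be is shown by stretches of 60 bases from the coding sequences of members and of their closest annotated copies. The stretch is the one with most differences, read 5′ to 3′ on the coding strand of the reference genome GRCm38, and capitals mark the bases that differ within a pair. Rps3a, Rpl26 and Rpl3 are shown because their level was near 0 in a strain, Rps13 because its copy is identical, and Rpl4 because its copy is more distant. Rps3a lies on the minus strand at chr3:86137940-86142702, and its copy Rps3a2 on the minus strand at chr14:88123017-88123808. Bases 609 to 668 of the coding sequence are shown.
Rps3a: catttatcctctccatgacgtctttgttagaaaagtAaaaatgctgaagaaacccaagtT
Rps3a2: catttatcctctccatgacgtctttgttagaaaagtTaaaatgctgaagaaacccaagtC

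Rpl26 (plus strand, chr11:68901583-68906989) has its closest copy in Gm15772 (plus strand, chr5:3236431-3236868), shown for bases 118 to 177.
Rpl26: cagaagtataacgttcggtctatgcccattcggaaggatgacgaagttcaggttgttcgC
Gm15772: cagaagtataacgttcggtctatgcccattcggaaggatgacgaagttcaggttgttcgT

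Rpl3 (minus strand, chr15:80077791-80091868) has its closest copy in Rpl3-ps1 (plus strand, chrX:13202571-13203780), shown for bases 1 to 60.
Rpl3: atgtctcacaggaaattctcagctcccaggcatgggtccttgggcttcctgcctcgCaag
Rpl3-ps1: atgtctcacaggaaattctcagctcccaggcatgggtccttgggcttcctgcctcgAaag

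Rps13 (minus strand, chr7:116331505-116334195) and Rps13-ps2 (minus strand, chr7:88530446-88530898) have the same letters over all 453 aligned bases, of which bases 1 to 60 are shown.
Rps13: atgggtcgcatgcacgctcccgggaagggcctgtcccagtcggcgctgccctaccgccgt
Rps13-ps2: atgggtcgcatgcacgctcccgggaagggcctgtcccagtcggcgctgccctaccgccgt

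Rpl4 (plus strand, chr9:64173375-64178666) and its closest copy Gm5835 (minus strand, chr1:143093347-143094616) differ at 5 of bases 798 to 857.
Rpl4: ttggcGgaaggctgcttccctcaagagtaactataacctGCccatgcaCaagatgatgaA
Gm5835: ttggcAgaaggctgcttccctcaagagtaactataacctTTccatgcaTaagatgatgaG

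Over the whole alignment, Rps3a and its copy differed at 4 of 792 bases, Rpl26 at 2 of 438 and Rpl3 at 2 of 1209. Rpl4 differed from its copy at 34 bases with 5 gap bases. Of the annotated loci, 519 shared at least 20% of a member's 31-base words, and 505 of them were processed pseudogenes. Such a locus was found for 73 of the 83 members.

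A gene was called near 0 in a strain when the mean there was under 10% of the gene's highest strain mean. This held for 18 of the 83 members (21.7%), all of them ribosomal proteins proper, against 109 of all 13089 genes (0.833%) and 0 of 74 mitochondrial ribosomal protein genes. Because the family was picked for this pattern, its strain differences are given as a description without p-values. The low strain was A/J alone for 6 members, A/J and BALB/c for 6, A/J and C57BL/6J for 4, BALB/c alone for Rps2, and BALB/c and C57BL/6J for Rpl27. No member was near 0 in C57BL/6J alone. The highest strain mean was at least 10 RPKM for 14 of the 18 and lower for the other 4.

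**Figure D1:**
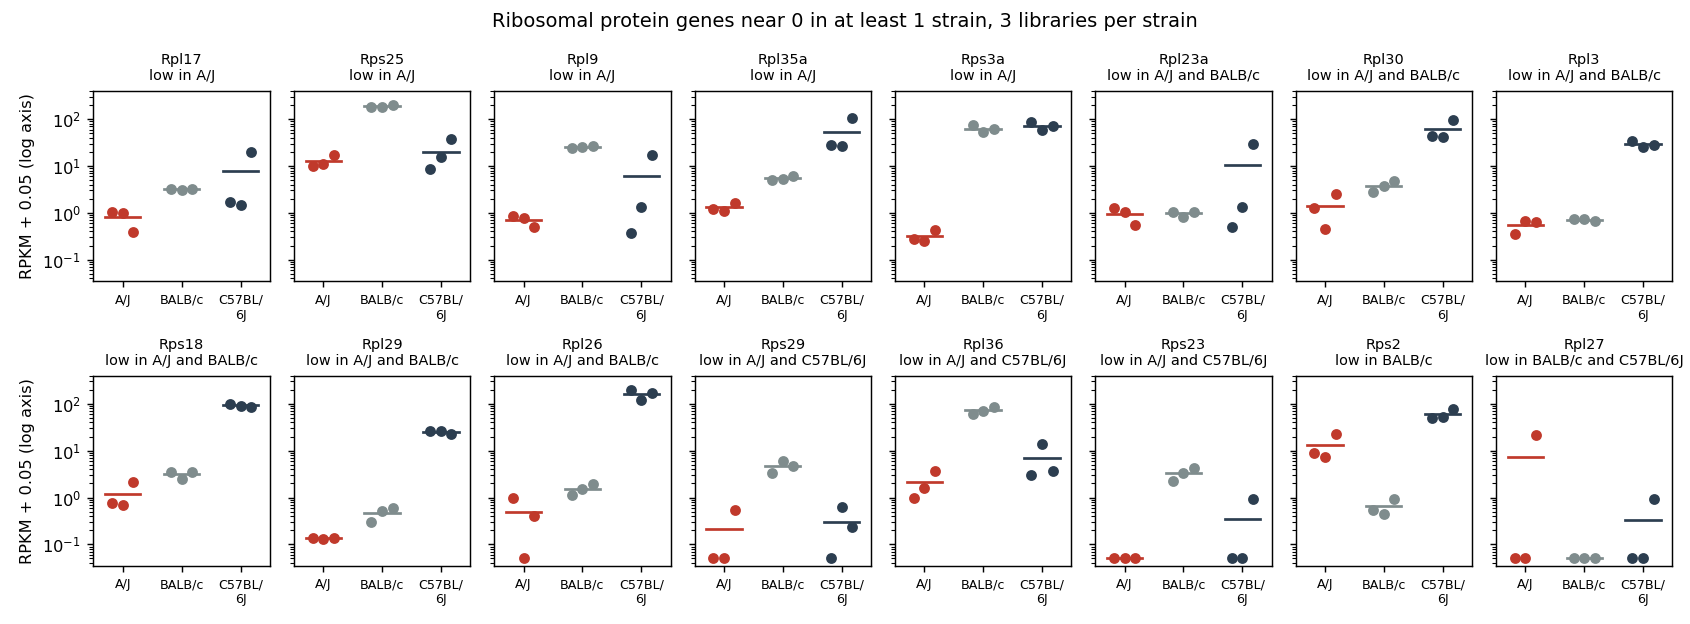
Each panel plots RPKM plus 0.05 on a log axis for 1 of 16 members near 0 in a strain, with points for the 3 libraries of A/J, BALB/c and C57BL/6J and a line at the strain mean. The points of the low and the high strains lie far apart for Rps3a, Rpl26, Rpl29 and Rps18, while the high mean of Rpl27, Rpl23a and Rpl17 rests on 1 library.

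In the small subunit, Rps3a, a protein near the path by which mRNA leaves the ribosome, had 0.22, 0.20 and 0.38 RPKM in A/J. It had 73.09, 54.06 and 61.78 RPKM in BALB/c, and 88.17, 58.19 and 72.73 RPKM in C57BL/6J. All A/J libraries were far under every library of the other strains, and the A/J mean was 0.365% of the C57BL/6J mean. BALB/c and C57BL/6J overlapped. Rps25, which certain mRNAs need to start translation from internal sites, had 9.7, 11.06 and 17.43 RPKM in A/J, 180.39, 185.05 and 202.05 RPKM in BALB/c, and 8.38, 15.41 and 36.72 RPKM in C57BL/6J. Here BALB/c stood above both other strains, which overlapped, and the C57BL/6J mean was just over the limit.

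In the large subunit, Rpl35a, a gene mutated in some patients with Diamond-Blackfan anaemia, had 1.18, 1.05 and 1.54 RPKM in A/J, 4.92, 5.2 and 6.21 RPKM in BALB/c, and 28.02, 25.99 and 106.68 RPKM in C57BL/6J. The strains did not overlap, although C57BL/6J 3 was far above the other C57BL/6J libraries. Rpl9 had 0.8, 0.71 and 0.45 RPKM in A/J, 23.73, 25.18 and 26.98 RPKM in BALB/c, and 0.32, 1.27 and 17.03 RPKM in C57BL/6J. The C57BL/6J mean of Rpl9 rested on C57BL/6J 3. Rpl17, a protein lining the exit tunnel of the large subunit, had 0.99, 0.95 and 0.34 RPKM in A/J, 3.16, 2.99 and 3.19 RPKM in BALB/c, and 1.68, 1.39 and 20.17 RPKM in C57BL/6J. Without C57BL/6J 3, or without A/J 3, it no longer met the rule.

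Among the members near 0 in both albino strains, Rpl26, a protein at the exit tunnel, had 0.95, 0 and 0.36 RPKM in A/J and 1.09, 1.48 and 1.93 RPKM in BALB/c. In C57BL/6J it had 194.97, 119.25 and 167.13 RPKM. Its A/J mean was 0.272% of the C57BL/6J mean, the lowest share among the members above 0 in every strain. Rps18, in the head of the small subunit, had 0.73, 0.65 and 2.11 RPKM in A/J and 3.43, 2.47 and 3.46 RPKM in BALB/c, against 100.71, 90.42 and 86.64 RPKM in C57BL/6J. Rpl29 had 0.09, 0.08 and 0.09 RPKM in A/J and 0.25, 0.46 and 0.54 RPKM in BALB/c, against 26.56, 26.4 and 22.74 RPKM in C57BL/6J. For these members, and for Rpl3 and Rpl30, every albino library lay under every C57BL/6J library.

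Rpl3, which reaches towards the site of peptide bond formation, averaged 0.507 ± 0.179 RPKM in A/J, 0.667 ± 0.0416 RPKM in BALB/c and 28.9 ± 4.92 RPKM in C57BL/6J (SD, n = 3 each). Rpl30 averaged 1.36 ± 1.02 RPKM in A/J, 3.75 ± 0.995 RPKM in BALB/c and 61.1 ± 31.3 RPKM in C57BL/6J (SD, n = 3 each). Its value was 97.23 RPKM in C57BL/6J 3, against 44.36 and 41.77 RPKM in the other C57BL/6J libraries. Rpl23a, where the signal recognition particle binds at the tunnel exit, was low in 8 libraries, between 0.44 and 1.26 RPKM, and reached 29.71 RPKM in C57BL/6J 3. Its low call in both albino strains therefore depended on that library and ended without it.

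The 4 members near 0 in A/J and C57BL/6J had their highest mean in BALB/c. Rpl36 had 0.95, 1.54 and 3.72 RPKM in A/J, 59.41, 71.2 and 86.48 RPKM in BALB/c, and 3, 13.97 and 3.7 RPKM in C57BL/6J. Every BALB/c library of Rpl36 exceeded every other library. Rps23, at the decoding centre, was listed at 0 in all A/J libraries, had 2.19, 3.33 and 4.14 RPKM in BALB/c, and was listed at 0, 0 and 0.87 RPKM in C57BL/6J. Rps29, a small zinc-binding protein, was listed at 0, 0 and 0.49 RPKM in A/J, had 3.25, 5.91 and 4.7 RPKM in BALB/c, and was listed at 0, 0.57 and 0.19 RPKM in C57BL/6J. The levels of Rps23 and Rps29 were low in every strain.

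Rps2, near the entry of the mRNA channel, was the member low in BALB/c alone, with 8.73, 7.44 and 22.37 RPKM in A/J, 0.48, 0.4 and 0.9 RPKM in BALB/c, and 49.88, 51.05 and 77.81 RPKM in C57BL/6J. The strains formed separate ranges. Rpl27 was listed at 0 in 7 libraries, at 21.95 RPKM in A/J 3 and at 0.86 RPKM in C57BL/6J 3, so its strain difference was that of 1 library, and it did not pass the filter on low values.

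The limit of 10% had no gap around it. Just inside it, the lowest strain mean was 6.73% of the highest for Rps25, 8.72% for Rpl23a and 9.81% for Rpl17. Just outside it, the share was 10.1% for Rps12, 10.5% for Rps27a, which is made fused to ubiquitin, and 10.6% for Rps13. Leaving out A/J 3 gave 23 members near 0, of which 17 were among the 18 of all libraries, and leaving out C57BL/6J 3 gave 19, of which 16 were shared. Rps7, a small-subunit protein that can bind the p53 regulator MDM2, joined the list without A/J 3 or without C57BL/6J 2. It had 1.79, 2.09 and 38.97 RPKM in A/J, 87.35, 123.93 and 135.57 RPKM in BALB/c, and 2.92, 34.29 and 7.9 RPKM in C57BL/6J, and its SD within strains of 1.67 on the log2 scale was the largest of the members tested.

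**Figure D2:**
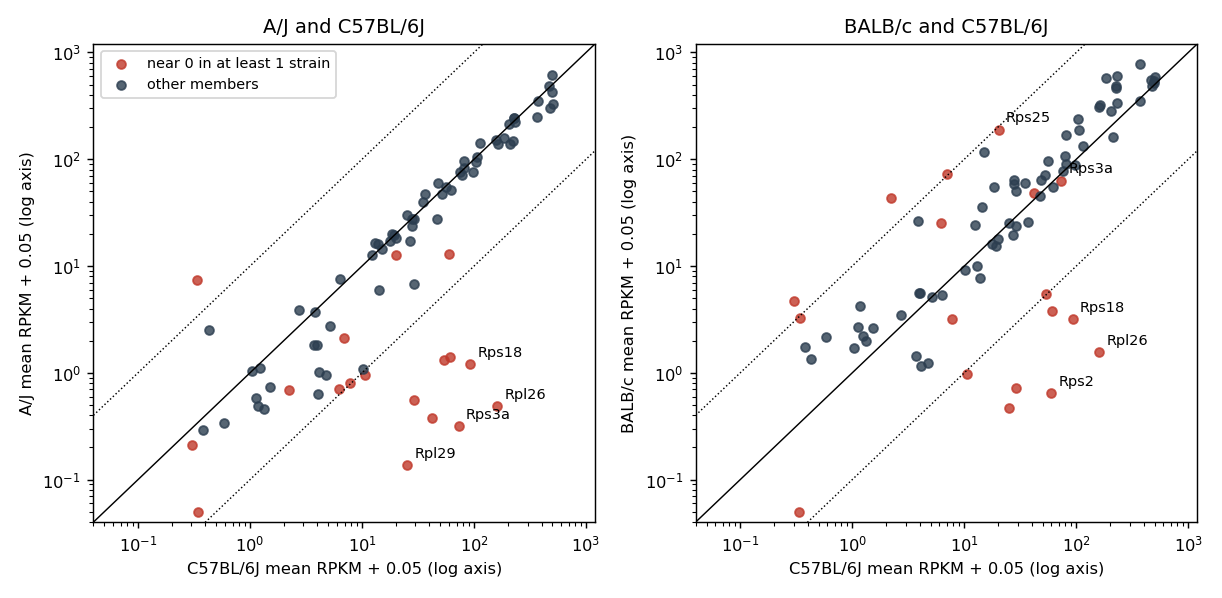
Strain means of the 83 members are plotted as RPKM plus 0.05 on log axes, A/J (left) and BALB/c (right) on the vertical axis against C57BL/6J on the horizontal axis; the solid line is equality and the dotted lines are 10-fold differences. Most members lie along the line of equality, with Rps3a, Rpl26, Rpl29 and Rps18 far under it in A/J, and Rps2, Rpl26 and Rps18 under it but Rps25 over it in BALB/c.

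The other 65 members were not near 0 in any strain. Of these, 48 reached a strain mean of 10 RPKM. Rpl4 had the highest mean over 9 libraries (542 RPKM), and Rpl8 (486 RPKM), Rps14 (476 RPKM) and Rplp1 (465 RPKM) were among the next. Rpl4 and Rpl8 lie close to the core of the large subunit, and Rps14 lines the mRNA channel of the small subunit. Rpl4 had 675.06, 721.08 and 430.87 RPKM in A/J, 524.24, 501.17 and 538.28 RPKM in BALB/c, and 596.03, 438.22 and 454.33 RPKM in C57BL/6J. Its 3 strains overlapped.

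The remaining 17 were low in all strains, with every strain mean under 10 RPKM. The lowest means of the family were those of Rpl36a (0.753 RPKM), Rpl24 (0.982 RPKM), Rps23 (1.17 RPKM), Rps27 (1.21 RPKM) and Rpl5 (1.22 RPKM). Rpl5 carries the 5S ribosomal RNA into the large subunit together with Rpl11, whose mean was 3.34 RPKM. Rpl36a had 0.14, 0 and 0.59 RPKM in A/J, 1.93, 1.28 and 1.86 RPKM in BALB/c, and 0, 0.17 and 0.81 RPKM in C57BL/6J. The listed means of the family ran from 0.753 RPKM for Rpl36a to 542 RPKM for Rpl4.

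Members also differed in how well libraries of a strain matched. The smallest SDs within strains, on the log2 scale, were 0.11 for Rpl7l1 and 0.12 for Rps19, Rps19bp1, Rps15a and Rpl22. Among the 82 members tested, the largest were 1.67 for Rps7, 1.5 for Rpl23a, 1.39 for Rps12, 1.28 for Rpl9 and 1.09 for Rpl17. Rps12 had 1.38, 0.56 and 1.14 RPKM in A/J, 8.23, 7.96 and 10.93 RPKM in BALB/c, and 0.9, 1.14 and 28.55 RPKM in C57BL/6J. Its C57BL/6J mean rested on C57BL/6J 3.

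The acidic proteins Rplp1 and Rplp2 form the flexible stalk that recruits translation factors. Rplp1 had 224.17, 243.33 and 270.7 RPKM in A/J, 722.6, 765.32 and 857.68 RPKM in BALB/c, and 404.12, 348.11 and 351.59 RPKM in C57BL/6J. Rplp2 had 136.16, 137.11 and 144.05 RPKM in A/J, 281.65, 351.72 and 338.1 RPKM in BALB/c, and 147.58, 131.23 and 214.44 RPKM in C57BL/6J. Both were highest in BALB/c without overlap. Rplp0, the base of the stalk, was listed under its older symbol Arbp, outside the symbol rule, and had 275.31, 273.6 and 281.45 RPKM in A/J, 160.59, 182.52 and 179.15 RPKM in BALB/c, and 405.19, 303.39 and 489.27 RPKM in C57BL/6J. It was lowest in BALB/c, the strain in which Rplp1 and Rplp2 were highest. Rpsa, a small-subunit protein also known as the laminin receptor, had 7.01, 6.28 and 4.39 RPKM in A/J, 30.84, 37.18 and 39.47 RPKM in BALB/c, and 7.85, 4.21 and 30.49 RPKM in C57BL/6J. The C57BL/6J mean of Rpsa rested largely on C57BL/6J 3.

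The family as a whole stood higher in BALB/c. Its share of the RPKM sum was 1.13%, 1.17% and 1.0% in A/J, 1.61%, 1.66% and 1.75% in BALB/c, while C57BL/6J libraries had 1.44%, 1.15% and 1.5%. The BALB/c libraries lay above all others. The highest strain mean was in BALB/c for 47 of the 83 members, in A/J for 12 and in C57BL/6J for 24, and the lowest was in A/J for 56, in BALB/c for 11 and in C57BL/6J for 16.

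The median log2 difference over the 82 members tested was -0.13 for A/J minus C57BL/6J, 0.65 for BALB/c minus C57BL/6J and -0.91 for A/J minus BALB/c, beside -0.01 over all 12920 genes tested in each comparison. The first value came to 0.07 without A/J 3 and C57BL/6J 3. Without the near-0 members, which the strain differences themselves select, the medians over the other 65 members were -0.02, 0.67 and -0.74 in the same comparisons. Mitochondrial ribosomal protein genes (74 tested) had medians of 0.09, 0.26 and -0.13. The 147 other genes with at least 90% of their coding sequence shared had medians of 0.04, 0.26 and -0.3. The comparisons share strains, so their values are not independent of each other.

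**Figure D3:**
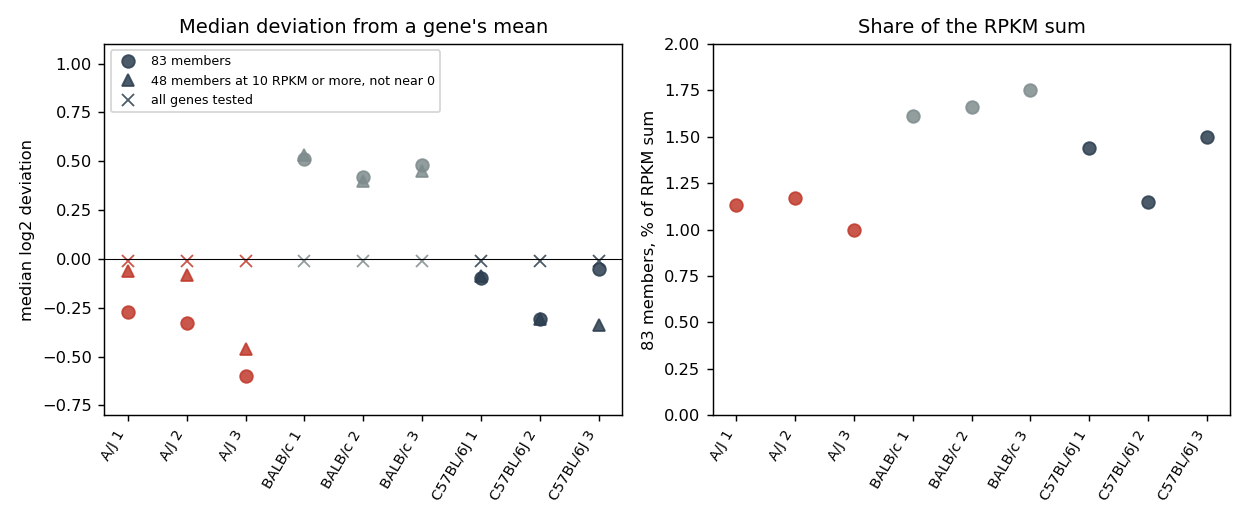
The left panel plots, for each library, the median log2 deviation from a gene's mean over 9 libraries, with circles for the 83 members, triangles for the 48 members at 10 RPKM or more and not near 0, and crosses for all genes tested; the right panel plots the members' share of the RPKM sum in percent. The 3 BALB/c libraries lie at 0.42 to 0.51 for all members, and the A/J and C57BL/6J libraries lie under 0.

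The limma fit over all genes called 9 members in A/J minus C57BL/6J at an adjusted p under 0.05, all lower in A/J (at an unadjusted p, 1 was higher), where 1.62% of all genes tested were called lower and 2.69% were called in either direction. It called 29 members in BALB/c minus C57BL/6J, 22 higher and 7 lower, where 3.09% of all genes were called, 1.93% higher and 1.15% lower. In A/J minus BALB/c it called 28, 1 higher and 27 lower, where 2.48% were called, 0.573% higher and 1.9% lower. The F test over 3 strains called 34 members and 4.47% of all genes. The members were picked with such values known, so these counts describe them and support nothing further. All 9 called in A/J minus C57BL/6J were near-0 members, which the strain differences themselves select. Rpl29 and Rpl3 reached 1 RPKM only in C57BL/6J, and Rps23, Rps29 and Rpl36a only in BALB/c. These members passed the filter on low values only through their high strain, so their calls are no support for a difference. Without A/J 3 and C57BL/6J 3, the counts were 22, 54 and 63 in these comparisons and 66 by the F test. On values corrected for GC content they were 9, 35 and 34, and 40 by the F test. The shares of all genes called in these settings are not given here. The shifts in these counts can therefore not be read as particular to the family.

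Of the 65 members not near 0, the fit called 0 in A/J minus C57BL/6J, where 2.69% of all genes were called. At an unadjusted limma p under 0.05, 1 was higher and 7 were lower there. In BALB/c minus C57BL/6J the fit called 17, all higher, beside 1.93% of all genes. In A/J minus BALB/c it called 19, all lower, beside 1.9% of all genes. Leaving out the near-0 members removes the largest differences by construction, so these counts are no separate result. Among those called, Rps21 averaged 159 ± 37.3 RPKM in A/J, 578 ± 60.1 RPKM in BALB/c and 184 ± 39.8 RPKM in C57BL/6J (SD, n = 3 each). Rps15, which sits near the decoding site, averaged 221 ± 32.4 RPKM in A/J, 600 ± 82.0 RPKM in BALB/c and 232 ± 55.0 RPKM in C57BL/6J (SD, n = 3 each). Rps21 and Rps15 were named after their values were seen. Of the 74 mitochondrial ribosomal protein genes tested, 1 was lower in A/J than in C57BL/6J, where 1.62% of all genes were called lower. In BALB/c minus C57BL/6J 6 were higher, beside 1.93% of all genes, and in A/J minus BALB/c 7 were lower, beside 1.9% of all genes.

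The members' sequences were compared with all other annotated loci, a measure that uses no expression value. The planned measure was the share of the whole transcript, and the share of the coding sequence was chosen after the data were seen. The groups by shared coding sequence rest on that later choice. The whole coding sequence was shared, in 31-base words, by 32 of the 83 members (38.6%) and by 90 of the 12844 genes with a coding sequence (0.701%). Over the 83 members, the mean RPKM and the share of the coding sequence had a Spearman correlation of -0.67. With the share of the whole transcript, which includes less copied ends, it was -0.3 (-0.24 with 25-base words and -0.42 with 50-base words). With the number of copies it was -0.43 and with GC content 0.09. These correlations are across genes that share libraries and are descriptions.

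The median of the mean RPKM was 3.99 for the 32 members with a fully shared coding sequence, 36.7 for the 23 members with 90% to under 100% shared, and 170 for the 28 members with less than 90% shared. Of the fully shared members, 8 were near 0 in a strain and 18 had every strain mean under 10 RPKM. In the group from 90% to under 100%, 9 were near 0. In the least shared group, Rpl35a, with 89.8% shared, was near 0. Exceptions stood on both sides: Rpl41, whose product is a very short peptide, was fully shared and averaged 277 RPKM, and Rpl39l had 13.5% shared and averaged 1.47 RPKM.

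**Figure D4:**
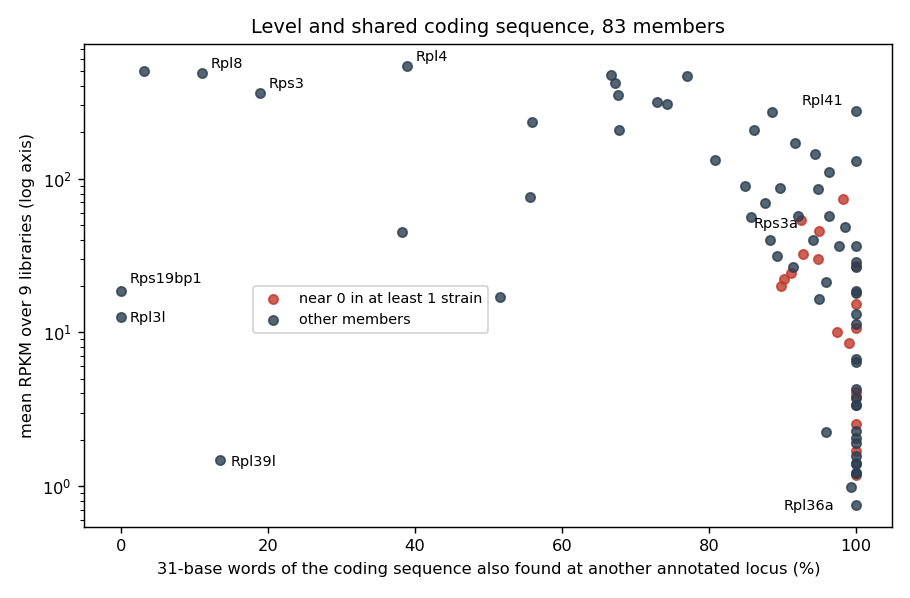
Each point is 1 of the 83 members, with the share of its coding sequence's 31-base words found at another annotated locus (%) on the horizontal axis and its mean RPKM over 9 libraries on a log vertical axis; members near 0 in a strain are red. Every red point lies at 89.8% or more, and Rpl8, Rps3 and Rpl4 lie at the upper left with little sharing.

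The near-0 members had a median of 98.7% of the coding sequence shared (89.8% to 100%), against 96% over all members and 0% over all genes. The pattern was not restricted to the family. Of the 150 other genes with at least 90% of the coding sequence shared, 17 (11.3%) were near 0 in a strain, and of the 11716 other genes with under 20% shared, 47 (0.401%) were. How reads matching several places were counted is not given in the sources used here, and the part of shared sequence in the low values was not tested. The copies were those annotated in C57BL/6J's reference genome, and copies or base differences of A/J and BALB/c were not analysed here.

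Grouped by the closest copy, 20 members had one identical over at least 95% of the coding sequence, and the median of their mean RPKM was 3.14. Of these 20, 13 were under 10 RPKM in every strain and 2 were near 0. The 42 members with a copy differing at 1 to 5 bases had a median of 30.6 RPKM and held 16 of the 18 near-0 members. The 21 members with a more distant, shorter or no copy had a median of 235 RPKM and held 0 near-0 members. Of the stretches shown, Rps13 belongs to the first of these groups, Rps3a, Rpl26 and Rpl3 to the next, and Rpl4 to the last.

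**Figure D5:**
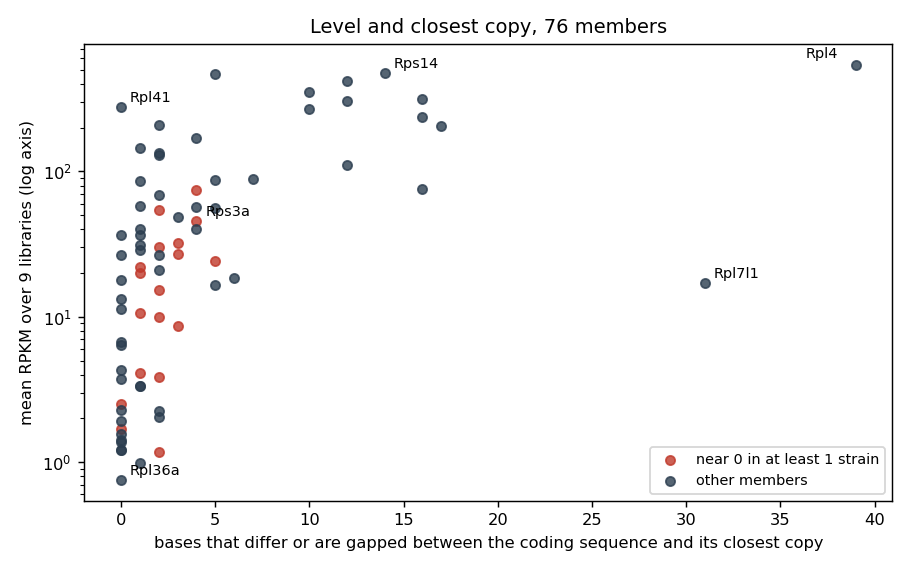
For the 76 members whose closest copy aligned over at least 95% of the coding sequence, the number of differing or gap bases is plotted against the mean RPKM over 9 libraries on a log axis, with members near 0 in a strain in red. All red points lie at 5 bases or fewer, and Rpl4 and Rps14 lie high at the right.

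Like-named variants gave 6 pairs. Rpl3l, a form known from heart and skeletal muscle, had no shared coding words and averaged 16.2 ± 5.25 RPKM in A/J, 7.75 ± 1.25 RPKM in BALB/c and 13.8 ± 3.15 RPKM in C57BL/6J (SD, n = 3 each), where its partner Rpl3 was near 0 in both albino strains. Rps27l averaged 44.9 RPKM over 9 libraries and its partner Rps27 1.21 RPKM, with 38.2% and 100% of the coding sequence shared. Rpl36al averaged 31.2 RPKM and Rpl36a 0.753 RPKM, with 89.3% and 100% shared. In these pairs the variant was listed above its partner on average over 9 libraries, although in C57BL/6J Rpl3, at 28.9 RPKM, was above Rpl3l, at 13.8 RPKM. In the others the partner was higher, with 1.47 RPKM for Rpl39l (13.5% shared) and 130 RPKM for Rpl39 (100%). Rpl22l1 averaged 26.8 RPKM (91.4%) and Rpl22 76.0 RPKM (55.7%), and Rpl7l1 averaged 17.0 RPKM (51.6%) and Rpl7 270 RPKM (88.6%). Rpl39 and Rpl7 were thus higher than their variants although more of their coding sequence was shared. Rps19bp1 had no shared coding words and averaged 18.2 ± 1.84 RPKM in A/J, 18 ± 0.39 RPKM in BALB/c and 20.0 ± 0.73 RPKM in C57BL/6J (SD, n = 3 each).

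Fau and Gnb2l1 also fall outside the symbol rule, and limma called neither in any comparison, also at an unadjusted p under 0.05. Fau, which codes for Rps30 fused to a ubiquitin-like protein, had 0.5, 486 and 1.03 RPKM in A/J, 6.8, 7.89 and 8.68 RPKM in BALB/c, and 1.65, 0.15 and 7.03 RPKM in C57BL/6J. Its high value was in A/J 2 only, of the 9 libraries. Gnb2l1, now called Rack1, a scaffold on the small subunit, had 525, 557.85 and 355.23 RPKM in A/J, 462.99, 500.8 and 516.97 RPKM in BALB/c, and 594.26, 385.34 and 406.51 RPKM in C57BL/6J, with strains overlapping. The files also list a row for the pseudogene Rps26-ps1, with 1.07, 0.27 and 1.57 RPKM in A/J, 21.03, 31.71 and 31.64 RPKM in BALB/c, and 0.36, 1.1 and 0 RPKM in C57BL/6J. Over the 9 libraries its log2 values had a Pearson r of 0.85 with those of its parent Rps26, which averaged 105 ± 22.0 RPKM in A/J, 188 ± 17.1 RPKM in BALB/c and 106 ± 22.7 RPKM in C57BL/6J (SD, n = 3 each). Both rows were highest in the BALB/c libraries, so this r largely reflects the difference between BALB/c and the other strains. The other row found that shares sequence with a member, BC004004, had an r of -0.6 with Rpl21. Rpn1, a ribophorin of the endoplasmic reticulum that is no ribosomal protein, averaged 43.9 ± 3.48 RPKM in A/J, 41.1 ± 0.467 RPKM in BALB/c and 39.9 ± 1.67 RPKM in C57BL/6J (SD, n = 3 each).

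Of 47 translation factors tested, 0 rose and 2 fell in A/J against C57BL/6J, 1 rose and 1 fell in BALB/c against C57BL/6J, and 0 rose and 1 fell in A/J against BALB/c by the limma test, where 2.69%, 3.09% and 2.48% of all genes tested were called. At an unadjusted limma p under 0.05, 1 was higher and 5 were lower in A/J against C57BL/6J. In BALB/c against C57BL/6J 7 were higher and 1 lower, and in A/J against BALB/c 2 were higher and 11 lower. The share of all genes at an unadjusted p is not given here. Eif4a1, the helicase that unwinds mRNA at initiation, fell to 7.62 ± 0.445 RPKM in A/J, against 22.9 ± 2.09 RPKM in BALB/c and 23.2 ± 3.49 RPKM in C57BL/6J (SD, n = 3 each). The limma log2 difference was -1.43 (SE 0.13, adjusted p = 0.00032) for A/J minus C57BL/6J and -1.59 (SE 0.13, adjusted p = 0.00031) for A/J minus BALB/c, and 98.9% of its coding sequence is shared with other loci. Eif3j, an initiation factor subunit with 99.7% shared, was low in every strain, at 0.39 RPKM in A/J, 0.323 RPKM in BALB/c and 2.02 RPKM in C57BL/6J. Its limma log2 differences against C57BL/6J were -1.44 in A/J and -1.51 in BALB/c. Eif3j reached 1 RPKM only in the C57BL/6J libraries, so it passed the filter on low values only through its high strain. Its calls are therefore no support for a difference. Eif2s3x, a subunit of the factor that brings the initiator tRNA, rose by 0.83 (limma adjusted p = 0.017) in BALB/c against C57BL/6J, a call lost in 7 of its 19 alternatives.

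Of 41 ribosome assembly and RNA polymerase I genes tested, Utp18, a component of the complex that processes the small-subunit RNA, was the only one called. It averaged 15.5 ± 3.28 RPKM in A/J, 6.38 ± 0.655 RPKM in BALB/c and 6.34 ± 0.92 RPKM in C57BL/6J (SD, n = 3 each), with limma log2 differences of 1.32 (SE 0.2, adjusted p = 0.0083) for A/J minus C57BL/6J and 1.14 (SE 0.2, adjusted p = 0.019) for A/J minus BALB/c. In BALB/c minus C57BL/6J, limma called 0 of the 41, also at an unadjusted p under 0.05. A single call among 41 genes is close to the 2.69% and 2.48% of all genes called in A/J minus C57BL/6J and in A/J minus BALB/c. The first call of Utp18 was lost in 3 alternatives and the other in 6. Its coding sequence shares no 31-base words with other loci.

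Other genes known for many processed copies showed low values too. Of 69 tested, limma called 0 higher and 5 lower in A/J minus C57BL/6J, 10 higher and 3 lower in BALB/c minus C57BL/6J, and 0 higher and 13 lower in A/J minus BALB/c. Over all genes tested, 1.08% were called higher and 1.62% lower in A/J minus C57BL/6J, 1.93% and 1.15% in BALB/c minus C57BL/6J, and 0.573% and 1.9% in A/J minus BALB/c. At an unadjusted limma p under 0.05, 2 of the 69 were higher and 7 lower in A/J minus C57BL/6J. In BALB/c minus C57BL/6J 31 were higher and 5 lower, and in A/J minus BALB/c 1 was higher and 32 lower. The share of all genes at an unadjusted p is not given here, so these counts have no baseline. Near 0 in A/J were Gapdh, Ppia, Hmgn2, Eno1 and Atp6v0c, and near 0 in C57BL/6J was Cox7c. Gapdh, a glycolytic enzyme often used as a reference gene, averaged 0.53 RPKM in A/J, 8.96 RPKM in BALB/c and 35.3 RPKM in C57BL/6J. Hmgn2, a nucleosome-binding protein, averaged 0.623 RPKM in A/J, 1.89 RPKM in BALB/c and 11.1 RPKM in C57BL/6J, with limma log2 differences of -3.3 in A/J (adjusted p = 4.9e-05) and -2.12 in BALB/c (adjusted p = 0.00062) against C57BL/6J. Cox7c, a subunit of cytochrome c oxidase, averaged 2.36 RPKM in A/J, 16.8 RPKM in BALB/c and 1.15 RPKM in C57BL/6J, with a limma log2 difference of 3.68 for BALB/c minus C57BL/6J (adjusted p = 0.0024). Hspa8, a heat shock chaperone made in all cells, had a limma log2 difference of -2.05 for A/J minus C57BL/6J (adjusted p = 7.5e-05) and of -1.14 for A/J minus BALB/c (adjusted p = 0.0034). Actg1, a cytoplasmic actin, had one of -1.39 for A/J minus BALB/c (adjusted p = 0.0036).

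Rps23 had the lowest ratio of strain means among the members tested. The 5 genes whose log2 values were most like it over the 9 libraries were Rplp2 (Pearson r 0.991), 9130019O22Rik (0.985), Actg1 (0.982), Slc39a1 (0.981) and Gabarapl2 (0.981). All 5 were highest in the BALB/c libraries. Rps23 itself exceeded 1 RPKM only there and was low in every strain, so high BALB/c values follow from the matching. The share of the coding sequence found at other loci was 86.2% for Rplp2, 56.4% for 9130019O22Rik, 100% for Actg1, 65.3% for Slc39a1 and 97.2% for Gabarapl2, an autophagy protein.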

How the data were processed

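For each library the authors deposited a table of 13089 genes, with values to 2 decimals. The submitters' processing notes name CASAVA 1.7, GenomeStudio and the mouse build mm9. Gene models, read length and the counting of reads that match several places are not known from the sources used here. No unit stands in the file headers, and the deposited values were read as RPKM, because values times transcript length summed to 90.1% to 105.2% of what RPKM gives over 12862 genes with a length. Depth is unknown, so no counting interval is given.

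Libraries were scaled by size factors of 0.931 to 1.158, found by the median of ratios, and log2(value + 0.5) was taken, a scale that understates changes of low genes. Genes with at least 1 RPKM in at least 3 libraries were tested (12920 genes, with 82 of the 83 members; 169 were not). Strains were compared with limma 3.58.1 in R 4.3.3 (trended prior variance, robust, strain only, all 9 libraries in 1 fit, two-sided, Benjamini-Hochberg over all genes, threshold 0.05), which was tested on simulated data. All adjusted p-values printed are from this fit. Means and SDs are of deposited RPKM.

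Shared sequence was the percentage of a gene's 31-base words found at another annotated locus of GENCODE M21 on GRCm38, a different build from mm9, used for names, length, GC content and the printed sequences and their coordinates. The member Rps3a was matched through a synonym and the other 82 by symbol. The closest copy was found by local alignment of the coding sequence (Python 3.11.15, Biopython 1.88). Only loci that share at least 5% of the 31-base words of the member's whole transcript were used, and 4 members had none.

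Named were all members near 0, the 3 on each side of that limit, the 5 highest and lowest means, the 5 smallest and largest spreads, stalk proteins, Rpsa, like-named pairs, up to 3 called genes per list and comparison, the other ribosomal proteins, and the 5 genes most like Rps23. Some items that this rule names are not reported here, but remain in the counts. Members, lists and rules were chosen with earlier results of these data known.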

Additional observations from a re-analysis of the deposited data

How the results depend on the processing

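The 32 gene results were recomputed under 586 alternatives, of which 584 kept the direction and 29 crossed the threshold. Rpl29, Rpl3, Rps23, Rps29 and Eif3j had fewer alternatives than the others. They failed the filter on low values once a library of their high strain was left out, so those settings are missing for them. All 32 results were chosen in the same data, as near-0 members between their lowest and highest strain or as called list genes. Keeping the direction was therefore largely fixed by that choice and is no support for them. The 2 reversals were of Rpl23a in A/J minus C57BL/6J, with 0.13 without C57BL/6J 3 and 0.36 without A/J 3 and C57BL/6J 3, against -1.33 with all libraries and -2.28 to 0.13 with 1 left out. Leaving out 1 library at a time gave 6 to 17 members called in A/J minus C57BL/6J, 18 to 37 in BALB/c minus C57BL/6J, 11 to 48 in A/J minus BALB/c, and 21 to 53 by the F test. Leaving out A/J 3 gave the highest of these counts in all 3 comparisons and by the F test. Without BALB/c 1, 2 or 3, 19, 18 and 18 members were called in BALB/c minus C57BL/6J and 18, 14 and 11 in A/J minus BALB/c; the F test called 22 without BALB/c 2 and 21 without BALB/c 3. Leaving out both A/J 3 and C57BL/6J 3 gave 22, 54, 63 and 66 members, and a median of 0.07 in A/J minus C57BL/6J. With A/J 3 as the only A/J library, 7 members were called in A/J minus BALB/c, with medians of -0.32 in A/J minus C57BL/6J and -1.08 in A/J minus BALB/c; its spread is then assumed to be that of the other strains. Without size factors the BALB/c minus C57BL/6J median was 0.47. The shares of all genes called under these alternatives are not given here, so the shifts may not be particular to the family. The causes of these shifts were not tested.

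Samples with the same replicate number did not deviate together in every pair, with correlations from -0.51 to 0.54. Pairs numbered 1 had 0.54, 0.34 and 0.34, and pairs numbered 3 had 0.47, 0.09 and 0.24. Pairs numbered 2 had 0.01, 0.02 and -0.51, the last between A/J 2 and BALB/c 2. Whether libraries of the same number shared a batch was not tested. With that number as a block, 11, 33, 36 and 41 members were called, and the share of all genes called is not given for this setting either.

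With a limit of 20% of the highest strain mean, 30 members were near 0. Leaving out 1 library gave 18 to 23. The median share of sequence of the near-0 members was 78.1% over transcripts, 79.2% with 25-base words, 74.9% with 50-base words and 98.7% over coding sequence, the last chosen after seeing the data. Unknown depth limits what a listed 0 means.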
